A study of Homo sapiens with 2 samples.

Results

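TP53INP1, its paralog TP53INP2, the kinases HIPK2 and PRKCD, and the matrix gene SPARC were followed in CD133-negative PLC8024 cells with and without added miR-130b. The members were the probe sets whose platform annotation gives exactly 1 gene symbol, equal to one of these names. They came to 17 probe sets of 5 genes, out of 41091 probe sets and 19775 genes with a single symbol. PLC8024 is a human hepatocellular carcinoma (HCC) line, and its CD133-negative fraction was isolated by flow sorting before transduction. Both groups are therefore sorted CD133-negative cells of the same line that carry a lentivirus. In the miR130b group the virus carried miR-130b, and in the empty_vector group it carried no insert. Each group holds 1 array, so no value here has a replicate error, no difference was tested, and all differences are between these 2 cultures. For the miR-130b sample the source label speaks of a transfection and the treatment protocol of a lentivirus.

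TP53INP1 is a stress protein that p53 induces. It gathers in nuclear PML bodies, where it binds p53 and HIPK2 and favours the phosphorylation of p53 that goes with cell death, and protein kinase C delta, the product of PRKCD, takes part in the same modification. In the cytoplasm, TP53INP1 and TP53INP2 bind proteins of the ATG8 family and promote autophagy. SPARC is a secreted collagen-binding glycoprotein, and work in pancreatic tumour cells described TP53INP1 as a restraint on its expression. TP53INP1 has been reported as a target of miR-130b in liver cancer, so that gene is not independent of the study.

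A microRNA finds its targets mainly through its seed, bases 2 to 8 of the mature strand. The overexpressed microRNA is shown with other human mature microRNAs from RefSeq (GRCh38.p14) that carry the same seed, because a transcript with a seed match to miR-130b matches all of them. Capitals mark the seed, and each sequence runs 5′ to 3′.
hsa-miR-130b-3p: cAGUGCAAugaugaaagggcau
hsa-miR-301b-3p: cAGUGCAAugauauugucaaagc
hsa-miR-301a-3p: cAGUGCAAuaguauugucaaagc
hsa-miR-454-3p: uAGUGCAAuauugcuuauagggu
hsa-miR-4295: cAGUGCAAuguuuuccuu
hsa-miR-3666: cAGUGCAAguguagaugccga
Among 2545 mature sequences in that table, these 6 carry the seed AGUGCAA, whose DNA match in a transcript reads TTGCACT. The table holds part of the family, and hsa-miR-130a-3p, which belongs to it too, is named here only. MiR-130b-3p lies at chr22:21653354-21653375 on the plus strand, and hsa-miR-301b-3p lies next to it at chr22:21653025-21653047. Outside the seed the sequences diverge. Over the whole strand, with the seed included, miR-301b-3p has the same base as miR-130b-3p at 13 positions counted from the 5′ end, and miR-454-3p at 10. The level of mature miR-130b in these cells was not analysed here, and no transcript sequence was searched for the match.

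All 5 genes had lower values in the miR-130b array by their main probe set, which is the measured probe set with the highest mean. HIPK2 and SPARC showed the largest differences, TP53INP1 came next, and TP53INP2 and PRKCD showed small ones. A probe set counted as measured when at least 1 array reached 4.88 on the log2 scale, the median of all values, and this floor kept 11 of the 17 probe sets. Of the 11, 4 passed it through the empty vector array alone and so had to be lower with miR-130b. Of these 11, 10 were lower in the miR-130b array and 5 were at least 1.5-fold lower, all 5 of them beyond 2-fold. None was 1.5-fold higher. Over all 23352 measured probe sets with 1 symbol, 44.7% were lower by any amount, 2.83% by at least 1.5-fold and 1.43% by at least 2-fold, while 0.33% were at least 1.5-fold higher. Counted by gene, 3 of 5 members were at least 1.5-fold lower, and the same 3 were at least 2-fold lower, against 2.68% and 1.52% of 13260 measured genes. The members were proposed with results of these arrays in view, so their distance from that background is no evidence about them. The median difference of the 5 was -1.18 on the log2 scale, beside 0.03 over all measured genes.

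**Figure D1:**
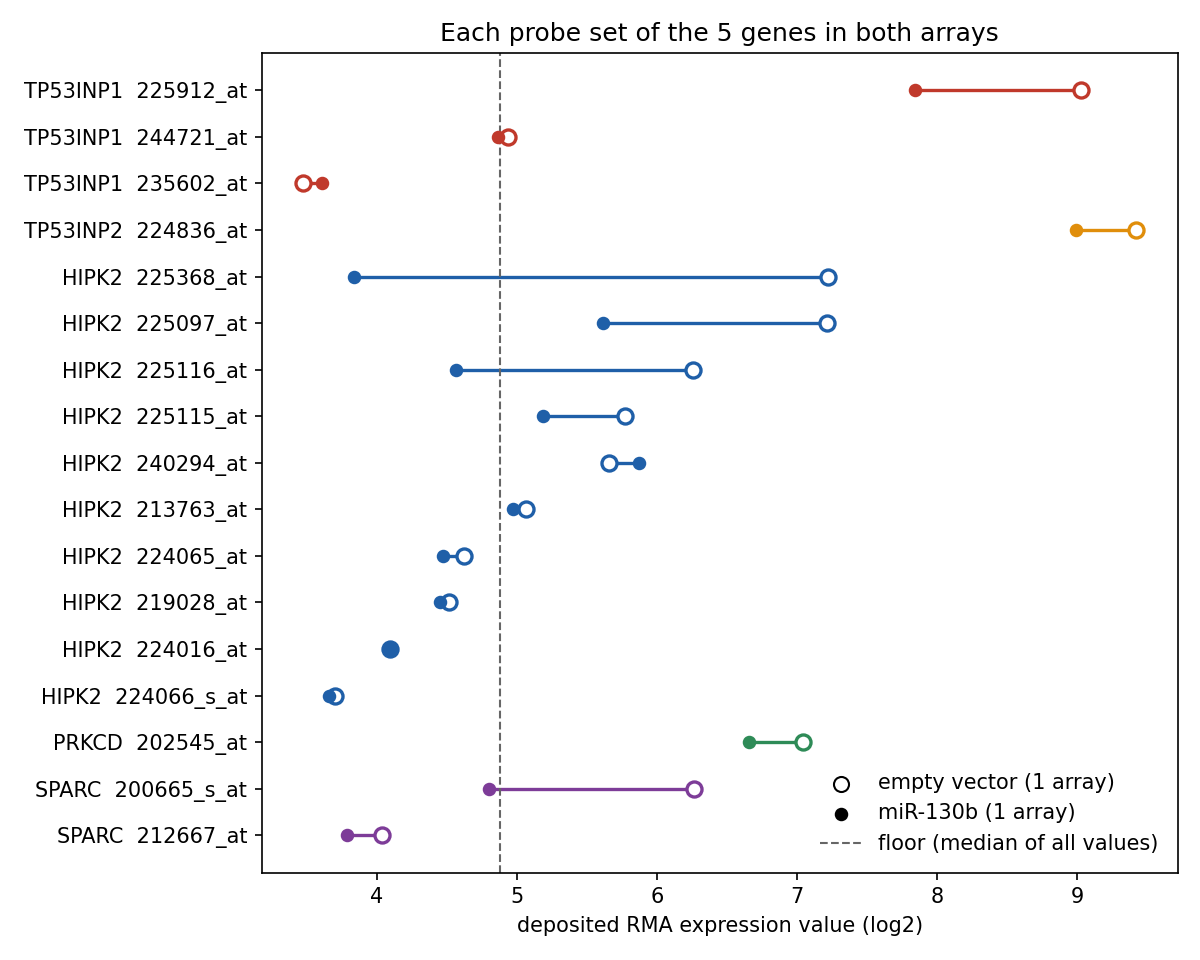
Deposited RMA expression value on the log2 scale (horizontal axis) of each of the 17 probe sets (rows, grouped by gene), with the empty vector array as open circles, the miR-130b array as filled circles and the floor of 4.88 as a dashed line; each circle is 1 array and there are no error bars. The HIPK2 rows run from a difference of -3.38 to one of 0.21, and the 6 probe sets left of the floor in both arrays hardly separate.

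Some facts of the whole data set bear on every member. HCC and hepatocyte genes were strongly detected: 9 of 10 listed markers were measured, and their main values lay between 9.26 and 14.07 in the empty vector array. Of these, TTR, KRT8 and ALB were beyond 1.5-fold, with differences of -3.34, -1.05 and -1.03, and AFP differed by -0.57. That is 3 of 9 measured markers at least 1.5-fold lower, or 33.3%, beside 2.68% of all measured genes. Of 5 endothelial markers, PECAM1 and TEK were measured and differed by 0.21 and 0.16. None of the 3 leukocyte markers with a probe set (PTPRC, CD3E and CD14) reached the floor. PROM1, the gene of the CD133 antigen used for the sort, stood at 9.19 with the empty vector and at 6.07 with miR-130b, so its transcript was well above the floor in cells sorted as CD133-negative. The 3′ to 5′ signal ratio of the array's ACTB control was 1.95 with the empty vector and 2.41 with miR-130b, and that of GAPDH was 1.37 and 1.52. The part of this shift in the results below was not tested. Where a gene had several measured probe sets, their differences varied around the gene's mean with a pooled SD of 0.202 (log2). That is the only spread the design offers, and it lies between probe sets, not between cultures. Whether it is technical or comes from different transcripts was not tested.

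TP53INP1 has 3 probe sets. The main one, 225912_at, read 9.02 with the empty vector and 7.84 with miR-130b, 2.27-fold lower. This value stayed far above the floor in both arrays, so neither reading sits in the compressed low range. Among 3491 measured probe sets whose mean lay within 0.5 of it, 0.602% had a difference as low or lower, and the gene ranked 157 from the lowest of 13260. Probe set 244721_at read 4.94 and 4.87, and 235602_at read 3.48 and 3.61. Both lie near or below the floor, with differences of -0.07 and 0.13. The lower value of TP53INP1 therefore rests on 1 of its 3 probe sets. The 4 genes whose main probe sets lay nearest to it over the 2 arrays, by Euclidean distance, were S100A11, RBMS1, DIPK2A and HEG1, at distances from 0.161 to 0.262 on the log2 scale and with differences of -0.96, -1.20, -0.82 and -1.31.

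TP53INP2, also known as DOR, is a nuclear receptor coactivator that moves to autophagosomes. Its single probe set, 224836_at, read 9.42 with the empty vector and 8.99 with miR-130b, a difference of -0.43 or 1.35-fold lower. It thus lay inside the 1.5-fold bounds. Of 2603 measured probe sets at a like mean, 2.50% were as low or lower. The gene ranked 535 from the lowest. Both paralogs were lower, and TP53INP1 by the larger amount in its main probe set.

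HIPK2 was the member with the most probe sets and the widest spread. It encodes a nuclear kinase that phosphorylates p53 after severe DNA damage and is degraded with the help of SIAH1 and WSB1. Probe set 225368_at read 7.22 with the empty vector and 3.84 with miR-130b, 10.4-fold lower. It ranked 13 from the lowest among 23352 measured probe sets. Probe set 225097_at, which stands for the gene because its mean was the highest, read 7.22 and 5.61, 3.04-fold lower. Probe set 225116_at read 6.26 and 4.56, 3.23-fold lower. All 3 were beyond 2-fold, but 225368_at and 225116_at ended below the floor, where residual background in RMA values compresses a fold.

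Probe set 225115_at of HIPK2 read 5.77 and 5.19, at 1.49-fold lower just short of the 1.5-fold bound. Probe set 213763_at read 5.07 and 4.97, and 240294_at read 5.66 and 5.87, the only HIPK2 probe set with a higher value in the miR-130b array. The other 4 HIPK2 probe sets, 224065_at, 219028_at, 224016_at and 224066_s_at, lay below the floor in both arrays, with differences between -0.15 and 0.00. The mean difference over the 6 measured probe sets was -1.19, with an SD of 1.32 between them. Of the 116 genes with at least 6 measured probe sets, HIPK2 had the highest such SD, and their median was 0.166. The HIPK2 SD includes the difference of -3.38 in 225368_at, which ended below the floor. Of 2511 genes with at least 3 measured probe sets, 33 had 3 or more at least 1.5-fold lower, and HIPK2 was among these 33. Of the HIPK2 probe sets in that count, 225368_at and 225116_at passed the floor through the empty vector array alone and so had to be lower. HIPK2, with 6 measured probe sets, also had more to count than a gene with 3. It was proposed with results of these arrays in view, so neither comparison is evidence about it. Which transcripts or which stretch of HIPK2 each probe set reads was not analysed here.

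PRKCD has 1 probe set, 202545_at, which read 7.04 with the empty vector and 6.66 with miR-130b. The difference of -0.39, or 1.31-fold lower, was inside the 1.5-fold bounds. Among 4366 probe sets at a like mean, 5.89% were as low or lower, so a difference of this size was not rare at that level. PRKCD ranked 623 from the lowest of 13260 genes.

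SPARC has 2 probe sets, of which 1 was measured. Probe set 200665_s_at read 6.27 with the empty vector and 4.80 with miR-130b, 2.76-fold lower. The miR-130b value lies just under the floor, so the probe set is measured through the empty vector array alone and had to be lower. Residual background compresses its fold and the rank taken from it. Its suffix marks a probe set that can read several transcripts. The other, 212667_at, lay below the floor in both arrays at 4.04 and 3.79. SPARC ranked 116 from the lowest of the measured genes, by 1 measured probe set. Its nearest genes over the 2 arrays were CYP26B1, GALC, SHROOM2 and MATN2, at distances from 0.0546 to 0.162, with differences of -1.54, -1.61, -1.27 and -1.42. TP53INP1 and SPARC were thus both lower in the miR-130b array, in 1 array of each condition.

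**Figure D2:**
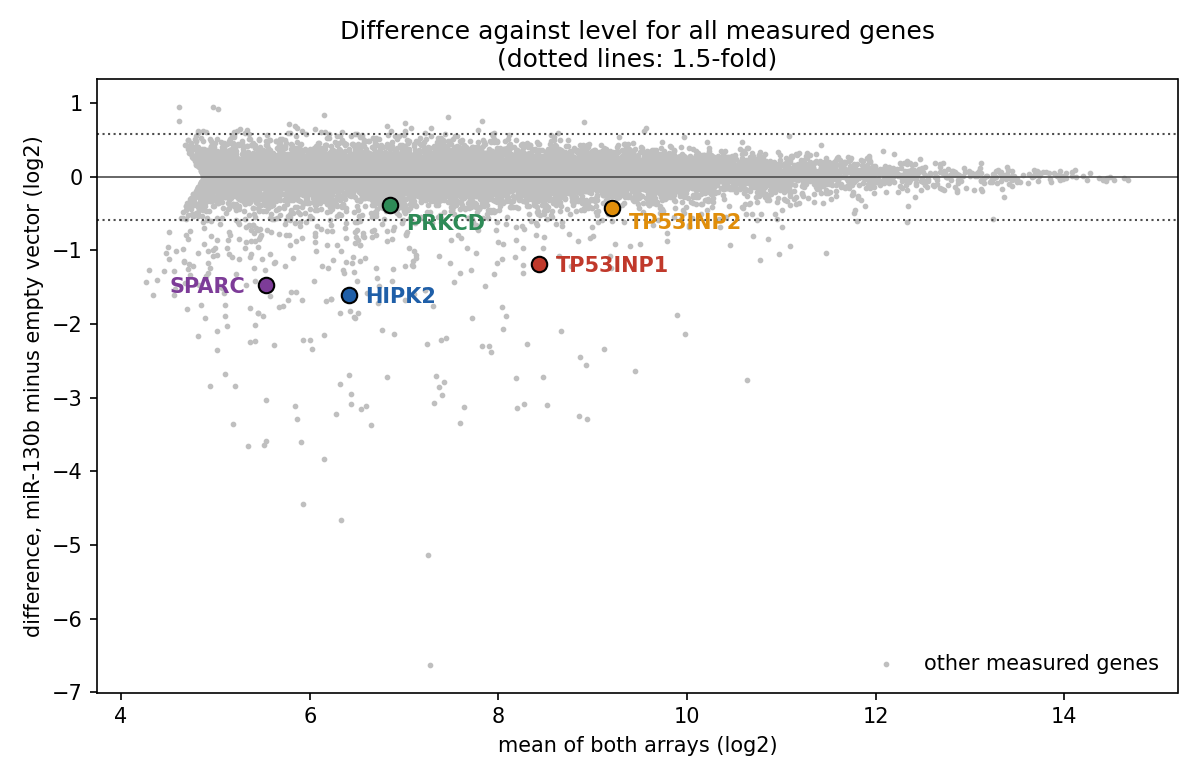
Difference miR-130b minus empty vector (log2, vertical axis) against the mean of both arrays (log2, horizontal axis) for 13260 measured genes, 1 point each, with the 5 members coloured and dotted lines at 1.5-fold. TP53INP1, HIPK2 and SPARC lie below the lower dotted line at -1.18, -1.60 and -1.47, while TP53INP2 and PRKCD lie between the lines.

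SPARC is the member at least 1.5-fold lower for which the RefSeq promoter table held a start site, and its promoter is shown because GGA repeats are a known feature of it. The stretch runs from 250 bases before the start to 50 after it, at chr5:151686866-151687165 on the minus strand of GRCh38.p14. Capitals mark GGAGGAGG, searched on both strands.
SPARC promoter: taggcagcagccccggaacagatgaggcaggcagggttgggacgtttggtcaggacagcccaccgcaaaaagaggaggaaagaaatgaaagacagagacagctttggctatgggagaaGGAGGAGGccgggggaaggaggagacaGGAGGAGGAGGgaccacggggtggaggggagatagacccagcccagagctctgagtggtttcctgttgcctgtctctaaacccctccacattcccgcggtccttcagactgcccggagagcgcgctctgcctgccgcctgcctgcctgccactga
The GGA repeat occurs 3 times in it, 2 of them overlapping, with matches beginning between 132 and 102 bases before the start, and in 10.9% of 35116 promoters of the same length at least once. The GC box GGGCGG, present in 45.0% of these promoters, the TATA box TATAAA (11.5%), the AP-1 site TGANTCA (7.71%) and the cyclic AMP element TGACGTCA (1.85%) have no match in this window. Of the 3 members with a promoter in the table, TP53INP2 alone has the cyclic AMP element, 61 bases before its first listed start. The motifs were chosen after the sequences were seen, and these matches are letters only.

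The genes that work with the members mostly stayed within 1.5-fold. Among kinases, ubiquitin ligases and other regulators of p53, 33 of 36 listed genes were measured, 1 was at least 1.5-fold lower and none was higher, which is 3.03% against 2.68% of all genes at that bound and 0.294% for higher values. The 1 gene was HIPK2 itself. The median of this list was 0.05 on the log2 scale, beside 0.03 for all genes. The next largest differences were 0.43 for HIPK1, 0.40 for the stress kinase gene MAPK9 and -0.39 for PRKCD. The DNA damage kinase genes ATM and ATR differed by 0.18 and 0.19, and MDM2, the ubiquitin ligase of p53, by 0.05 from 8.08 to 8.14.

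The paralogs of HIPK2 were not lower by their main probe sets. HIPK1 read 8.72 and 9.15, HIPK3 read 10.2 and 10.4, and HIPK4 read 6.25 and 6.27 in the empty vector and miR-130b arrays. HIPK1 and HIPK3 also had measured probe sets that differed by -0.07 and -0.20, so their higher values depend on the probe set. Of 18 measured HIPK genes and HIPK2 partners, 2 were at least 1.5-fold lower, HIPK2 and FHL2, and none was higher. Without HIPK2, itself a member, this is 1 of 17, beside 2.68% lower and 0.294% higher over all genes. FHL2 encodes a LIM-domain protein that binds HIPK2 and p53, and it read 8.33 and 4.96, a difference of -3.37 in its single probe set. SIAH2, a ubiquitin ligase acting on HIPK2, differed by 0.37, and SIAH1 and WSB1 by 0.19 and 0.16. The 3 measured WSB1 probe sets ran from -0.18 to 0.16, so its sign depends on the probe set. The list's median was 0.12.

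Among p53 target genes, 31 of 37 were measured and 3 were at least 1.5-fold lower: TP53INP1, the polo-like kinase gene PLK2 and the matrix glycoprotein gene THBS1. None was at least 1.5-fold higher by its main probe set, and the median was 0.03. Without TP53INP1 this is 2 of 30, or 6.67%, beside 2.68% of all genes. PLK2 read 7.18 and 3.52 in its single probe set. It passed the floor through the empty vector array alone and so had to be lower. THBS1 read 7.02 and 5.33 in its main probe set, and all 3 measured THBS1 probe sets were at least 1.5-fold lower. TP53I3, an oxidoreductase gene, and ZMAT3, an RNA-binding protein gene, differed by -0.56 and -0.55, just inside the bound. The cell cycle inhibitor gene CDKN1A differed by 0.01, from 6.91 to 6.93, and the death receptor gene TNFRSF10B by 0.07. PMAIP1 had the highest difference of the list, 0.33 in its main probe set, from 8.67 to 9.00. Its other measured probe set differed by 0.588, just beyond the 1.5-fold bound on the higher side. Of the 30 measured p53 targets other than TP53INP1, 18 had a difference above 0 and 12 below.

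PRKCD belongs to a family in which 12 of 15 listed genes, protein kinase C, D and N forms together, were measured. Only PRKD1, a protein kinase D, was at least 1.5-fold lower, and none was higher. Without PRKCD this is 1 of 11 genes, or 9.09%, beside 2.68% lower and 0.294% higher over all genes. PRKD1 read 6.63 and 3.79 in its 1 measured probe set. It passed the floor through the empty vector array alone and so had to be lower. PRKCH differed by 0.35, opposite in sign to PRKCD, while PRKCE differed by -0.03. PRKCQ read 4.66 and 4.96 and was measured through the miR-130b array alone. It therefore had to be higher, so its difference of 0.29 is no contrast with PRKCD. The median of the family was 0.00, with 6 genes above 0 and 6 below.

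Of 29 listed genes of the ATG8 family and the core autophagy machinery, 27 were measured and none was beyond 1.5-fold, with a median of 0.01. At the shares over all genes, 2.68% lower and 0.294% higher, a list of this size holds fewer than 1 such gene, so the count is near the background. Of the ATG8 family, which both proteins bind, GABARAP differed by -0.29 (11.4 and 11.1), MAP1LC3B by -0.21 and GABARAPL2 by 0.00. VMP1, a membrane protein that binds TP53INP2, had the lowest difference of the list at -0.41, and ATG4A the highest at 0.29, with WIPI1 at 0.28. The cargo receptor gene SQSTM1 read 12.8 and 12.7.

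In the SPARC family of matricellular proteins, 4 of 8 genes were measured and 2 were at least 1.5-fold lower, SPARC itself and FSTL1. Without SPARC this is 1 of 3 genes, too few to set against the 2.68% of all genes. FSTL1 read 7.23 and 5.07, a difference of -2.16 in its 1 measured probe set. SMOC1 and SPOCK2 each differed by -0.06, and SPARCL1, SMOC2, SPOCK1 and SPOCK3 lay below the floor. With 2 of 4 genes lower, the median of -0.76 describes no typical member. Of SPARC's matrix partners, receptors and regulated growth factors, 12 of 19 were measured. At least 1.5-fold lower were 3 of the 12, or 25.0% beside 2.68% of all genes. COL1A2, a chain of the type I collagen that SPARC binds, differed by -3.08, THBS1 by -1.69 and TGFB1 by -1.01, and the other 9 were inside the bound, among them PDGFA at 0.43. COL1A1 differed by -0.08 in its main probe set, but its 4 measured probe sets ran from -1.68 to 0.38. The other measured TGFB1 probe set differed by 0.00.

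Fibroblasts also express SPARC, so their markers were read beside it. Of 10 fibroblast and stellate cell markers, 5 were measured and COL1A2 alone was beyond 1.5-fold by its main probe set. That is 1 of 5, or 20%, beside 2.68% of all measured genes. COL3A1, LUM, FAP, ACTA2 and PDGFRA lay below the floor in both arrays, and DCN, PDGFRB and THY1 differed by -0.08, -0.08 and 0.24. COL1A1, the other measured marker, is given above: 2 of its 4 measured probe sets were at least 1.5-fold lower, and their mean was -0.57. The summed linear value of the list was 611 with the empty vector and 372 with miR-130b, and COL1A2 makes up most of that gap, from 7.98 to 4.90 on the log2 scale. In bulk RNA, fewer cells of a type and less RNA per cell cannot be told apart. The part of such cells in the SPARC difference was not tested.

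**Figure D3:**
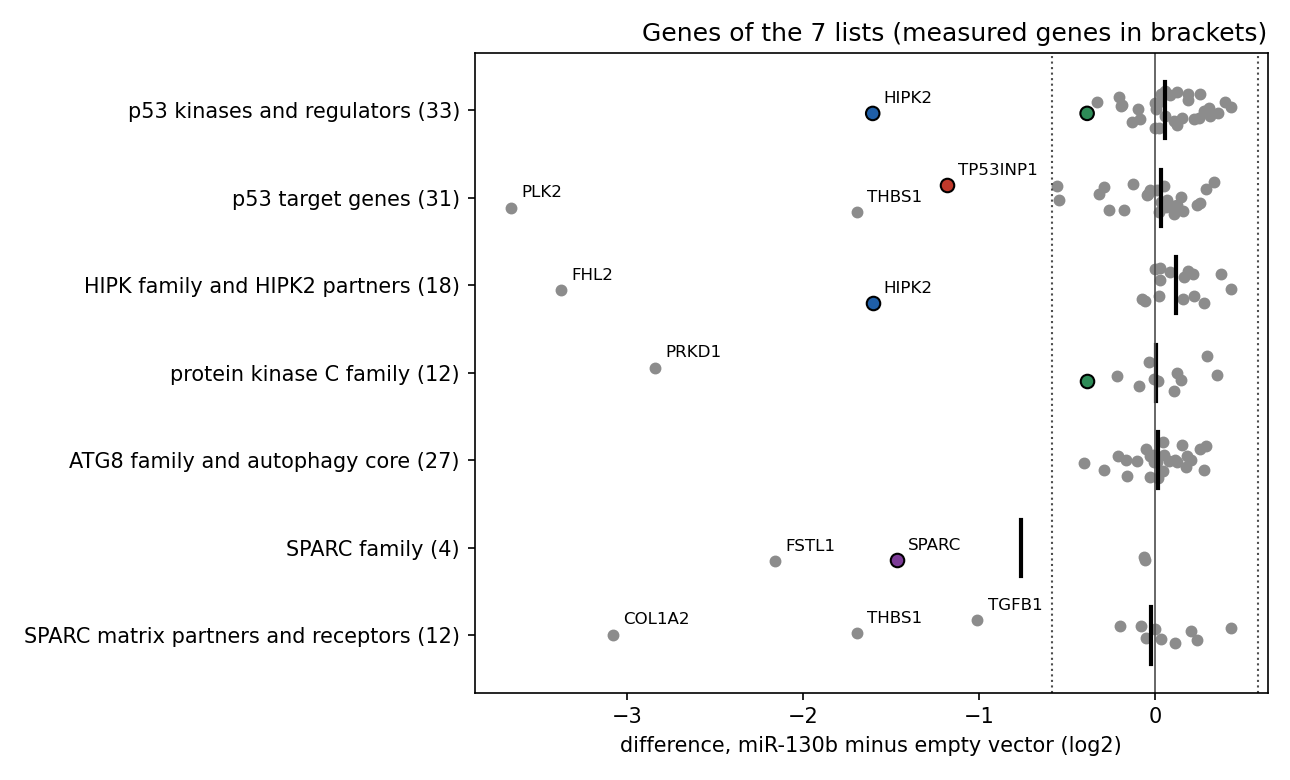
Difference miR-130b minus empty vector (log2, horizontal axis) of the measured genes in 7 lists (rows, number measured in brackets), 1 point per gene by its main probe set, with the list median as a black bar, members coloured as in the other plots, genes beyond 1.5-fold named, and vertical scatter without meaning. All named genes lie on the lower side, and 6 of the 7 medians lie between -0.03 and 0.12, with the SPARC family of 4 genes at -0.76.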

How the data were processed

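The authors deposited log2 values for 54675 probe sets on each array. Per the submitters' processing notes the values come from RMA; version and settings are not given in the sources. RMA leaves residual background and compresses low values, and the table holds no detection calls, so precision is limited by 1 array per group. Of 54613 non-control probe sets, 41091 had 1 symbol in GEO's platform annotation. Entrez identifiers of 41037 matched RefSeq, and no symbol changed. For each probe set the empty vector value was subtracted from the miR-130b value on the log2 scale. A gene's main probe set is the measured one of highest mean. The bounds of 1.5-fold and 2-fold are rules of size. The members and gene lists were chosen with earlier results of these data known. Text names all members, per list up to 4 genes with the largest differences and all beyond 1.5-fold, and the 4 genes nearest to TP53INP1 and SPARC. Other genes named were chosen for their role or their values after values were seen. p53's own transcript is not reported here. The counting was tried on simulated arrays, with an equal shift planted in all probe sets of each of a set of bright genes. Real probe sets of a gene differ and some members lie near the floor, so that trial does not measure the accuracy of these counts. Alternatives were another floor, the mean of probe sets, fewer probe sets, and loess (span 0.3) or median centring. Python 3.11.15, numpy 2.4.6, pandas 2.3.3, statsmodels 0.14.6 and matplotlib 3.10.9 were used.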

Additional observations from a re-analysis of the deposited data

How the results depend on the processing

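Of 112 values recomputed for the 5 members and the 7 lists under 6 alternatives, 105 moved by less than the SD between probe sets or, for counts, by at most 1.5 times, 7 moved further and 0 changed sign. Most of the 112 are counts, which cannot change sign. The counts of genes at least 1.5-fold higher were 0 under every setting, so these totals say little about stability. With the mean of all measured probe sets, TP53INP1 had -0.63 and HIPK2 had -1.19 in place of -1.18 and -1.60. The TP53INP1 mean includes its other measured probe set, which lies near the floor and differed by -0.07. The HIPK2 mean takes in measured probe sets with differences from -3.38 to 0.21, on both sides of its main probe set. Without probe sets whose names end in _x_at or _s_at, genes at least 1.5-fold lower came to 1 among HIPK genes and partners (2 with all probe sets), 1 in the SPARC family (2) and 0 among SPARC's matrix partners (3), with fewer genes left. With the floor at the 75th percentile of all values, 6.98, they came to 0 in the protein kinase C family (1) and 1 in the SPARC family (2). SPARC has no value under either of these alternatives, because no measured probe set is left. No paired analysis was possible because each group holds 1 array.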
